A study of Sus scrofa with 2 samples.

Results

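CD5, KLRB1, CCR7, CD247 and GPA33 are 5 of the 19550 protein-coding genes placed on pig chromosomes, and they were followed through a list of chromatin loops and a list of topologically associating domains from pig spleen. The first 4 are T or NK cell genes chosen by their loops, since an annotated end of each lay in a loop anchor, and GPA33 was added as the gene at the other end of the CD247 loop. Together they met 10 of the 3410 listed loops, 1 of which joined CD247 to GPA33. Loop contacts chose the genes, so counts of loops, spans and contacts are given as a description without a test. At the level of all protein-coding genes, 4.85% had 2 or more loops. A share of 1.25% had 3 or more, as CD5 did, and 0.322% had 4 or more, as GPA33 did. The 3 loops of CD5 touched one another on the contact map, and the 4 of GPA33 formed 2 touching groups. These counts are thus not of independent loops. The samples were spleen of Sus scrofa and formed a single group of 2 replicates. They were profiled by in situ Hi-C, in a series on transposable elements and genome folding. No breed, age, sex, treatment or genotype is given in the labels used here, and there was no second group. Both lists cover the whole series, so no value per replicate could be given.

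In situ Hi-C ligates stretches of DNA that are neighbours in the nucleus and counts the joined pairs. A loop is a pair of loci with more contacts than its surroundings, and its ends, the anchors, are often held by CTCF and cohesin. A domain, or TAD, is a stretch that contacts itself more than its neighbours. The spleen filters blood and is also a large lymphoid organ, in which T cells gather in sheaths around arterioles and NK cells are found mainly in the red pulp. CD5 is a surface receptor that dampens signals of the T cell receptor, and it is also carried by some B cells. KLRB1 is a lectin-like receptor of NK cells and some T cells. CCR7 is the chemokine receptor that guides naive T cells and dendritic cells into T cell zones. CD247 encodes the zeta chain, which carries the signal of the T cell receptor and of several NK receptors. GPA33 is a surface protein of the immunoglobulin superfamily, known best from intestinal epithelium. Hi-C on whole spleen measures DNA contacts averaged over all its cells, so neither the expression of these genes nor the cell type that carries a loop can be read from it.

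The contacts given are whole-number counts in a pixel of 25 kb by 25 kb, not normalized. The expected value is the level predicted from a ring (donut) of surrounding pixels, in the same unit. The FDR given for a loop is the largest of its 4 values in the authors' deposited table, one for each local neighbourhood. Intervals on contacts are 95% exact Poisson intervals. They cover counting error only and leave out differences between the replicates. The sequencing depth is unknown here. Coordinates are those of the deposited lists, counted from 1. Their build is not named in the files. Gene positions came from a RefSeq table of Sscrofa11.1, which has no strand, so a gene end below is either annotated end and may be the start or the finish of transcription.

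CD5 was joined to a block of genes on the far side of CD6. Its 3 loops on chromosome 2 spanned 150, 175 and 200 kb. The 200 kb loop joined the bin from 10625001 to 10650000, with ends of CD5 and VPS37C, to the bin from 10825001 to 10850000, with ends of TMEM132A and TMEM109. VPS37C is a subunit of the ESCRT-I complex of endosomal sorting, and TMEM109 is a membrane protein of the endoplasmic reticulum. This loop had 101 observed contacts (interval 82.3 to 122.7), against 51.1 expected. The other 2 loops started from the adjoining bin, 10650001 to 10675000, which held the second end of CD5 and no other gene. The 175 kb loop led to the same TMEM132A and TMEM109 bin and had 113 contacts (93.1 to 135.9), against 58.7 expected. The 150 kb loop led to the bin from 10800001 to 10825000, with ends of TMEM132A and of SLC15A3, a lysosomal transporter of peptides and histidine, and it had 113 contacts against 69.1 expected. The ratios of observed to expected contacts were 1.98, 1.92 and 1.64 for the loops of 200, 175 and 150 kb, and the intervals of the 3 ratios overlapped. The 3 pixels touched one another, so they are not 3 independent loops. The end of CD5 in the 200 kb loop was the one closest to the rule's limit, 1.03 kb inside the border of its anchor.

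TMEM132A shared all 3 loops with CD5, more than any other gene, and TMEM109 shared 2. CD6, the paralogue of CD5 and likewise a scavenger-type receptor of T cells, lay between the anchors of all 3 loops and had 0 loops at its own ends. All the other loops on chromosome 2 had their anchors at least 176.5 kb from CD5.

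KLRB1 and CLEC2D stood in the same anchor. In humans, CLEC2D encodes the ligand that KLRB1 recognises. A 100 kb loop on chromosome 5 ran from an anchor at 62225001 to 62250000, where both genes had an end, to a distant bin at 62125001 to 62150000. It had 152 contacts (128.8 to 178.2), against 87.4 expected. A 125 kb loop joined the bin from 62250001 to 62275000, with the other end of KLRB1, to the same distant bin, and had 189 contacts (163.0 to 218.0), against 93.7 expected. The ratios were 1.74 for the 100 kb loop and 2.02 for the 125 kb loop. The distant bin held no protein-coding gene and overlapped only an unnamed pseudogene. The 2 pixels touched.

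These were the most contacts among the 10 loops. Of the 436 autosomal loops of 125 kb, 94.5% had fewer contacts than the KLRB1 loop of that span, and 68.3% had a lower ratio. Of the other lectin-like genes of chromosome 5, 5 on the T and NK list were matched. CD69, an early activation marker, and KLRF1, KLRG1, KLRD1 and KLRK1, receptors of NK cells, each had 0 loops at their ends, and 17.3% of all protein-coding genes had at least 1.

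CCR7 had 1 loop, which led to TOP2A. TOP2A encodes a DNA topoisomerase of dividing cells. The loop spanned 150 kb on chromosome 12, from the bin at 21850001 to 21875000 to the bin at 22000001 to 22025000, with 139 contacts (116.9 to 164.1), against 81.7 expected. The ratio was 1.70, and 19% of the 279 autosomal loops of 150 kb had a lower one. Both ends of CCR7 lay in its anchor, with no other protein-coding gene there. TNS4, a tensin, and IGFBP4, which binds insulin-like growth factors, lay between the anchors. A second loop began in the next bin, 5.79 kb from CCR7, and joined it over 100 kb to an end of IGFBP4 with 166 contacts against 99.7 expected. It touched the CCR7 pixel, and it was not counted for CCR7 because no part of the gene lay in its anchor. CCR7 had 0 loops when 1 pixel, the one with the most contacts, was kept per group of touching pixels.

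CD247 and GPA33 were joined over 450 kb on chromosome 4. The anchors were the bins from 83475001 to 83500000, with an end of CD247 alone, and from 83925001 to 83950000, with an end of GPA33 alone. This loop had 64 contacts (49.3 to 81.7), against 29.0 expected, a ratio of 2.21 (1.70 to 2.82). POU2F1, a widely expressed octamer-binding transcription factor, and DUSP27 lay between. In the authors' deposited table the 4 FDR values of the loop were 0.000518 for the donut, 0.0437 for the lower-left, 0.0834 for the horizontal and 0.0846 for the vertical neighbourhood. The last is the highest FDR among the 10 loops, and the highest for any placed loop in the authors' deposited table was 0.0999. The bin of CREG1, an anchor of 2 GPA33 loops, adjoined the CD247 anchor and lay 19.3 kb from CD247 itself. The CD247 pixel touched the pixels of those 2 loops and had fewer contacts than either. With 1 pixel kept per group of touching pixels, CD247 had 0 loops.

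GPA33 had 4 loops, 1 to CD247, 2 to CREG1 and 1 to POGK. CREG1 encodes a secreted lysosomal glycoprotein. The loops from GPA33 to the bin of CREG1, 83450001 to 83475000, spanned 450 kb with 72 contacts (56.3 to 90.7) against 32.2 expected, and 475 kb with 71 contacts (55.5 to 89.6) against 26.0 expected. The first of these started from the bin from 83900001 to 83925000, which also held an end of DUSP27. Their FDRs in the authors' deposited table were 0.00358 and 0.00261. The intervals of these 2 loops and of the CD247 loop overlapped, and the 3 pixels touched. The 475 kb loop had the highest ratio of the 10, at 2.74, and 88.4% of the 43 autosomal loops of that span had a lower one.

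The fourth GPA33 loop ran the other way. It ran from the anchor at 83925001 to 83950000 to one at 84200001 to 84225000, where POGK had an end, a gene for a protein with a KRAB domain and a domain derived from a pogo transposase. It spanned 275 kb and had 65 contacts (50.2 to 82.8), against 28.5 expected, with an FDR of 0.0595 in the authors' deposited table. MAEL, a germ line factor of transposon silencing, ILDR2 and TADA1, a subunit of a histone acetylase complex, lay between its anchors. The bin of GPA33 from 83925001 to 83950000 was thus an anchor of 3 loops, 2 to the side of CD247 and 1 to the side of POGK.

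**Figure D1:**
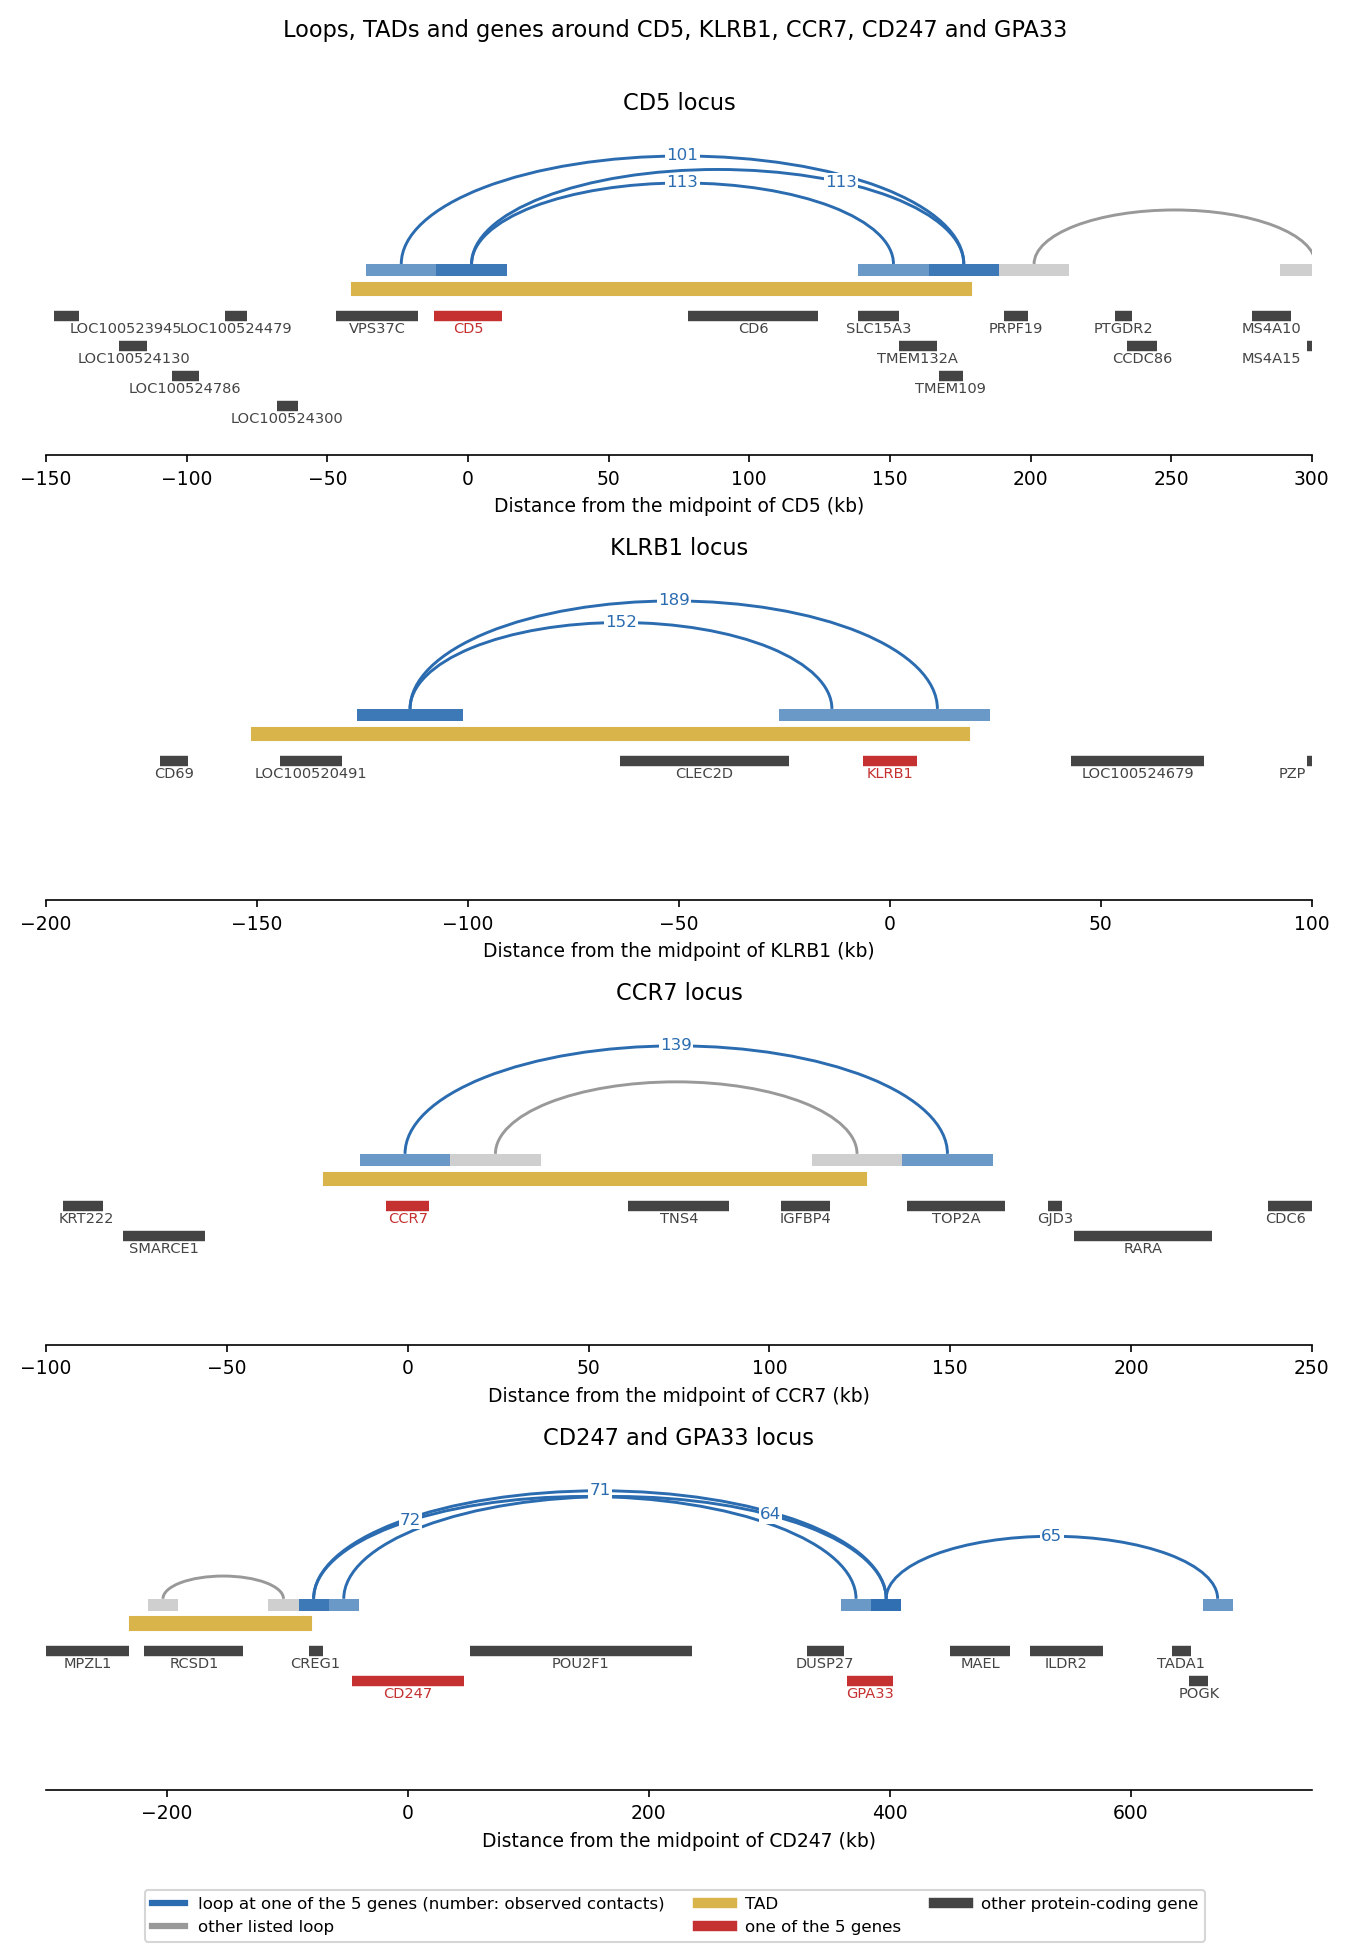
Maps of the 4 loci, each in kb from the midpoint of the gene named under the axis, with listed loops that have both anchors in the window as arcs over their 25 kb anchors, TADs as yellow bars, and protein-coding genes below. Arc height follows span and the numbers are observed contacts. CD5, KLRB1 and CCR7 lie inside a TAD, whereas CD247 and GPA33 lie beyond the end of one.

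All 10 loops stood above each of their 4 expected values. The lower bound of observed contacts exceeded the highest of the 4 expected values in each loop, which follows from how loops are called and is no separate evidence. The lowest of the 4 ratios ran from 1.499 for the CCR7 loop to 2.055 for the 475 kb loop of GPA33. The other loops lay between these.

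**Figure D2:**
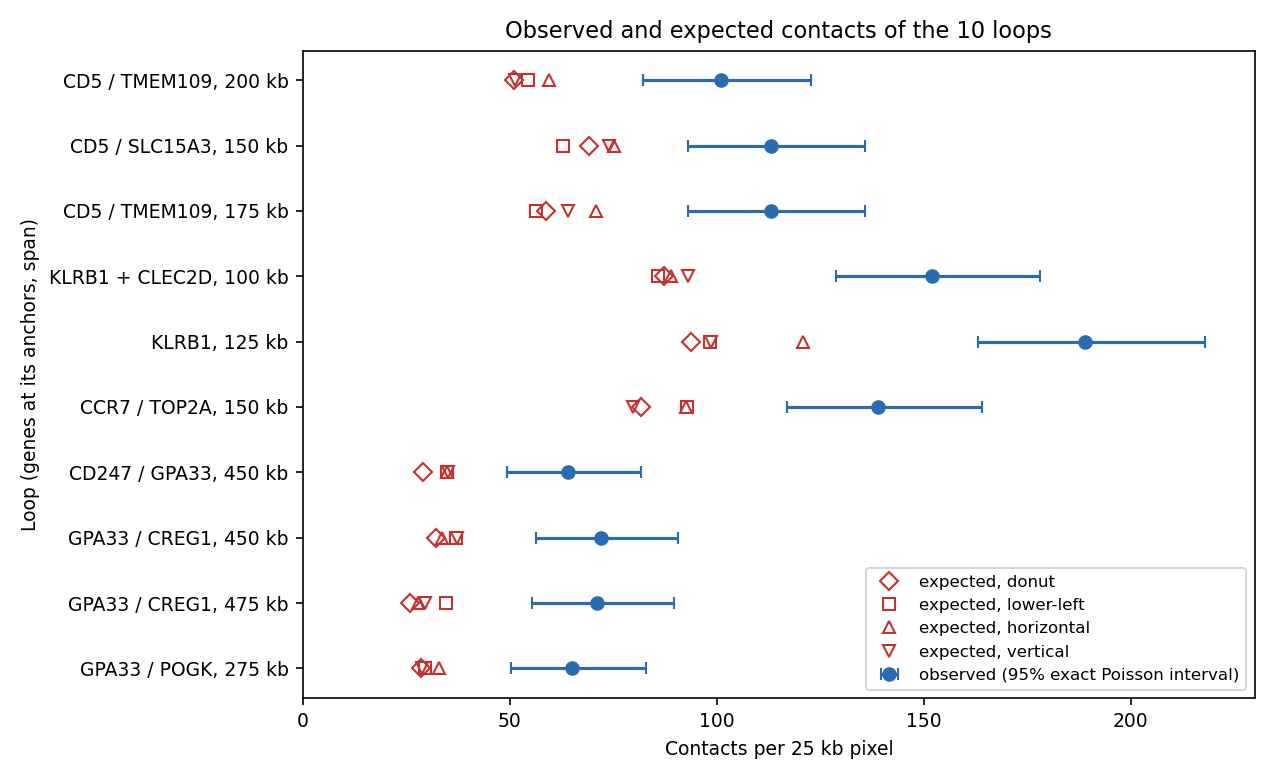
Observed contacts of the 10 loops (blue points, with 95% exact Poisson intervals) and the 4 expected values from neighbouring pixels (red symbols), in contacts per 25 kb pixel. The KLRB1 loops have the most contacts, 189 and 152, and the loops of CD247 and GPA33 the fewest, 64 to 72.

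The longer loops had fewer contacts, so each is given beside autosomal loops of its own span. The 4 loops of CD247 and GPA33 spanned 275 to 475 kb and had 64 to 72 contacts, whereas the 6 loops of CD5, KLRB1 and CCR7 spanned 100 to 200 kb and had 101 to 189. The median ratio of the 10 loops was 1.998, against 2.022 over the 3402 placed loops. The median span was 187.5 kb against 175 kb, and the median observed contacts were 107 against 108. The 35 autosomal loops of 450 kb had a median of 77 contacts and a median ratio of 2.44, and the loops of that span from GPA33 to CD247, with 64 contacts and a ratio of 2.21, and to CREG1, with 72 and 2.23, lay below both. The 275 kb GPA33 loop had more contacts than 10.1% of the 129 loops of its span and a higher ratio than 68.2% of them. The 475 kb GPA33 loop had more contacts than 53.5% of its span. Among the CD5 loops, that of 150 kb had a higher ratio than 10.4% of the loops of its span, that of 175 kb than 32.7% and that of 200 kb than 35.2%, with more contacts than 44.1%, 60.2% and 41.4% of them. The 100 kb KLRB1 loop had more contacts than 66.1% of the 719 loops of its span and a higher ratio than 52.4%. The CCR7 loop had more contacts than 76.0% of its span. On each of these 3 measures the median of the 10 loops lay between the quartiles of the placed loops. Gene ends stood in both anchors of 8 of the 10 loops, and the 2 exceptions were those of KLRB1. Of the placed loops with a gene end in at least 1 anchor, 39.2% had one in both. The 8 of 10 cannot be weighed against that share. GPA33 was chosen as the partner of CD247, which fixed both ends of that loop. The 10 loops also formed only 5 groups of touching pixels.

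**Figure D3:**
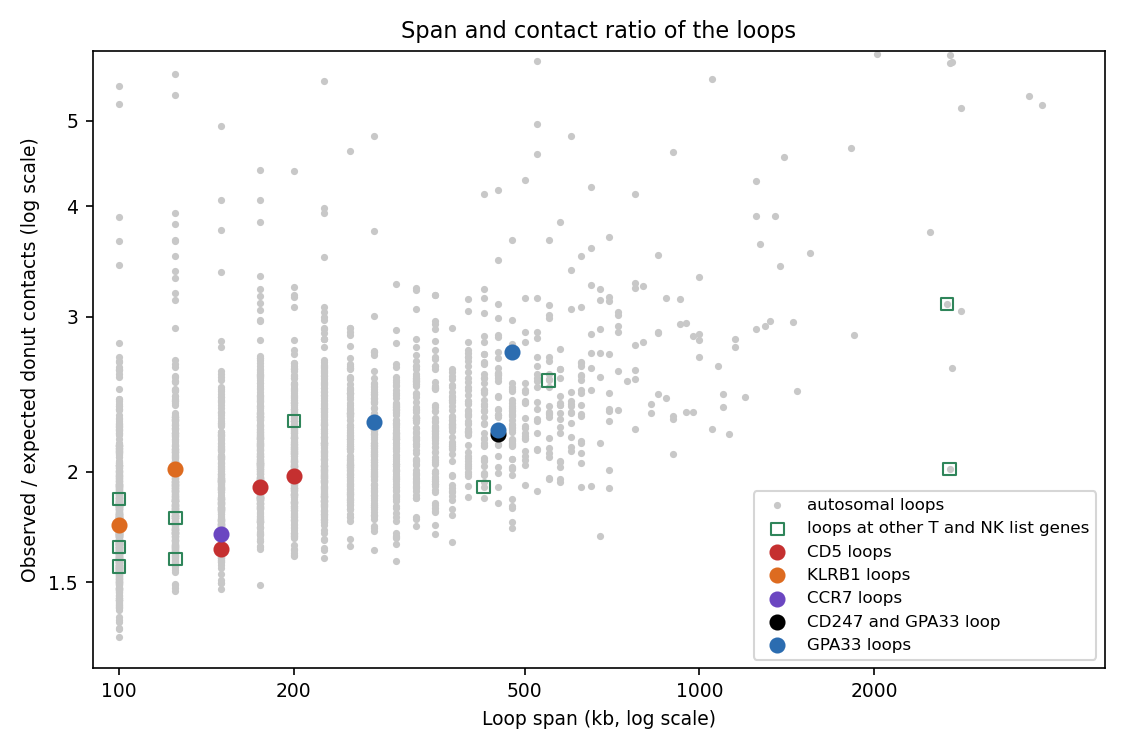
Span of each autosomal loop (kb) against its ratio of observed to expected donut contacts, both on log scales, with loops of the 5 genes in colour and loops of other T and NK list genes as open squares. The plot leaves out 104 autosomal loops with a ratio above 6. The coloured points lie within the cloud of loops of their span.

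CD5, KLRB1 and CCR7 each lay whole inside 1 TAD, whereas CD247 and GPA33 lay in none. TADs and loops come from the same Hi-C data and are not independent. Over all protein-coding genes, 26.0% were held whole by a TAD. The TAD of CD5 spanned 220 kb, from 10620001 to 10840000, and also held CD6, SLC15A3, TMEM132A and TMEM109. The 200 kb CD5 loop ran between its edges, with a gap of 5 kb on the left and 0 kb on the right. The TAD of KLRB1 spanned 170 kb, from 62100001 to 62270000, and held CLEC2D and an unnamed gene. Its right edge fell inside the anchor of the 125 kb loop, and its left edge lay 25 kb outside the distant anchor. The TAD of CCR7 spanned 150 kb, from 21840001 to 21990000, and held TNS4 and IGFBP4. The CCR7 loop overshot its right edge by 10 kb, so TOP2A lay outside, and the left anchor began 10 kb inside the left edge.

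Within 20 kb of both edges of a TAD lay 2 of the 10 loops, that of CCR7 and the 200 kb loop of CD5. The share over all placed loops was 28.6%. The median TAD of the list was 260 kb, longer than each of these 3.

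CD247 and GPA33 lay in a stretch of 1360 kb without a listed TAD, and their loops covered only part of it. The nearest TAD, from 83310001 to 83460000, ended 34.3 kb before CD247, and its right edge fell in the CREG1 anchor of the GPA33 loops. Inside that TAD a 100 kb loop joined the bins from 83325001 to 83350000 and from 83425001 to 83450000, with 231 contacts against 95.6 expected. RCSD1, the gene there, had no end in either bin.

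The other genes of T and NK cells were taken from a list of 83, of which 79 matched a single placed gene. The list was written with earlier results of these data known. An end lay in a loop anchor for 12 of the 79 (15.2%, 95% Wilson interval 8.91 to 24.7%), near the 17.3% of all protein-coding genes. For CD5, KLRB1, CCR7 and CD247 this was the rule of choice. The interval takes genes as independent, although neighbours can share an anchor. The count was 15 by gene bodies, against 20.7% of all genes, and 16 with anchors widened by 10 kb on each side, against 24.5%. It was 8 with 1 pixel per group of touching pixels, against 14.7%, and 6 in the 1701 placed loops with the lowest FDR, against 9.34%. CD247 was among those lost in both of the last, and CCR7 in the first of them. The 17 loops at the listed genes joined no 2 listed genes to each other. By role, the share was 3 of 4 for the T cell receptor complex, 3 of 10 for trafficking, 2 of 11 for transcription factors, 1 of 17 for coreceptors and costimulation, 1 of 13 for NK receptors and adaptors, 1 of 8 for cytotoxic effectors, 1 of 7 for cytokine receptors and 0 of 9 for signalling, which allows a share of up to 29.9%. The receptor complex count moved to 4 of 4 with widened anchors, and to 1 of 4, CD3E alone, both with 1 pixel per group and in the loops with the lowest FDR, so that CD3G and CD247 were lost in both. Transcription factors had 3 of 11 with widened anchors and 0 of 11 in the loops with the lowest FDR. Cytotoxic effectors had 3 of 8 with widened anchors and 0 of 8 with 1 pixel per group and in the loops with the lowest FDR, and cytokine receptors had 2 of 7 by gene bodies and 0 of 7 in the loops with the lowest FDR. Trafficking had 2 of 10 with 1 pixel per group, and signalling had 1 of 9 by gene bodies.

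Beside CD247, the receptor complex had CD3E and CD3G at anchors on chromosome 9. CD3E and CD3G encode signalling chains that pair in the receptor. The CD3E loop ran over 100 kb from the anchor at 45600001 to 45625000 to ends of SCN2B and JAML, an adhesion protein of leukocytes, with 178 contacts against 113.9 expected. The CD3G loop left in the opposite direction, from the bin at 45650001 to 45675000, and reached over 125 kb a bin without protein-coding gene ends, with 160 contacts against 100.3 expected. Their ratios were 1.56 and 1.59, and the ratio of the CD247 loop was 2.21 at a longer span. CD3D, the fourth chain, had no end in an anchor.

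EOMES, a transcription factor of NK and memory T cells, had a 550 kb loop with 68 contacts against 26.8 expected, to ends of CMC1 and AZI2. LEF1, a factor of naive T cells, had a 425 kb loop with 80 contacts against 41.6 expected, to a bin without protein-coding gene ends. IL18RAP, a chain of the interleukin 18 receptor, had a 200 kb loop with 67 contacts against 29.3 expected, also to a bin without such ends. NKG7, a protein of cytotoxic granules, had 2 loops of 2675 and 2700 kb with 114 and 95 contacts against 36.8 and 47.2 expected. With 1 pixel kept per group of touching pixels, NKG7 had 0 loops. NKG7 shared its anchor with LIM2, CLDND2 and C6H19orf84.

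TADs held 34 of the 79 list genes whole (43.0%, Wilson interval 32.7 to 54.0%), against 26.0% of all protein-coding genes. No test was made of this difference, and genes such as CD3D, CD3E and CD3G or CD8A and CD8B are close neighbours. Lists of other spleen cells had 0 of 7 genes at an anchor for B cells (up to 35.4%), 1 of 8 for macrophages and 2 of 8 for stroma and vessels. The share over all protein-coding genes was 17.3%, and the Wilson interval of each of these lists included it.

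**Figure D4:**
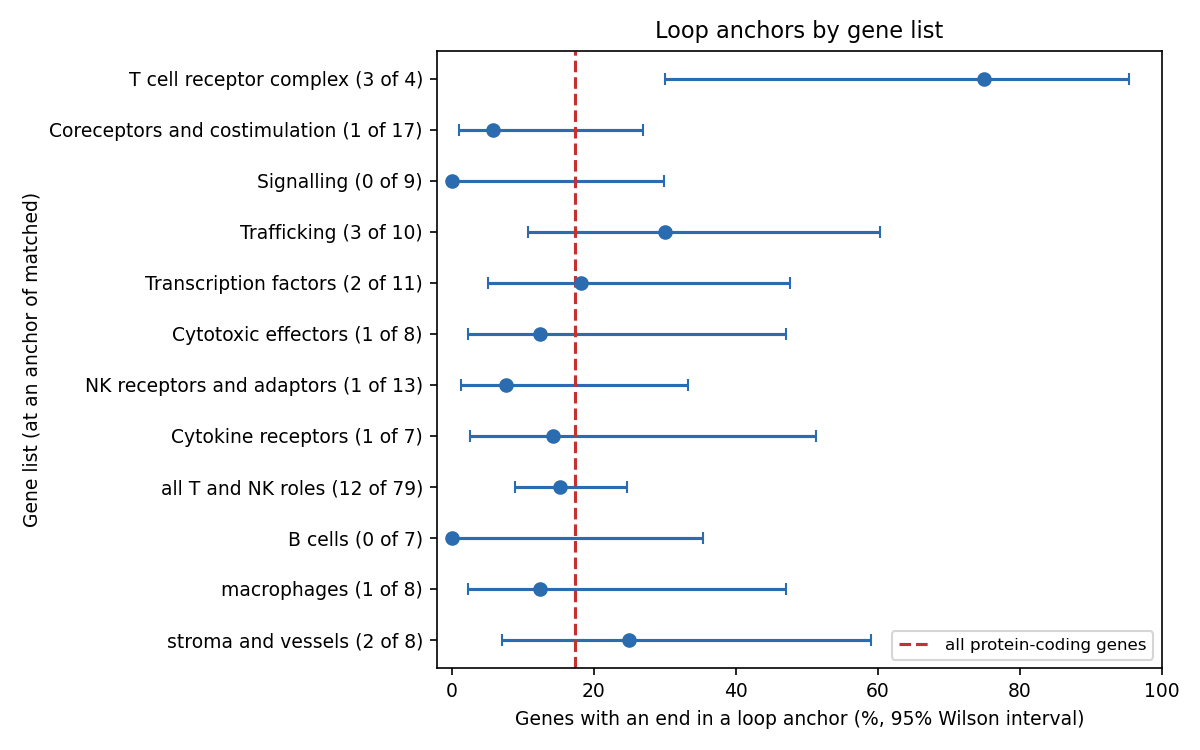
Share of genes with an end in a loop anchor (%, with 95% Wilson intervals) for T and NK genes by role, the whole T and NK list and lists of other spleen cells; the dashed line is the 17.3% of all protein-coding genes. The whole list stands at 15.2%, and its interval spans the line.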

How the data were processed

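In situ Hi-C was run on pig spleen in 2 replicates. Per the submitters' processing notes, HiC-Pro 3.1.0 was used. Per the file headers, loops were written by juicer_tools 1.9.9. Observed contacts are the authors' raw counts per pixel. Expected contacts are the authors' deposited values from 4 neighbourhoods of each pixel. The FDRs are q-values deposited by the authors. The deposited TAD list has only starts and ends, multiples of 10 kb, with no caller named. Whether the replicates were pooled is likewise not given here.

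Gene ends were intersected with anchors in Python 3.11.15 with pandas 2.3.3 and scipy 1.17.1, and overlap was tested on simulated data. The ratio of observed to expected contacts and all intervals were computed here. Spans run from anchor start to anchor start. Genes named were the 5, every protein-coding gene with an end in their anchors or in their TADs, list genes at anchors, and the genes sharing most loops. Neighbours between anchors or around the loci were named after their values were seen. The members and lists were chosen with earlier results of these data known. Promoter motifs and transcription starts were not analysed, since no sequence or strand was given. Values of some list genes at anchors are not reported here.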

Additional observations from a re-analysis of the deposited data

How the results depend on the processing

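The number of loops at the 5 genes depended on which pixels were counted. It was 10 by gene ends and by gene bodies and 11 with anchors extended by 10 kb, where CCR7 had 2. With 1 pixel per group of touching pixels, the one with the most contacts, it was 4, with 1 for CD5, 1 for KLRB1 and 2 for GPA33, and CCR7 and CD247 had 0, because a neighbouring pixel was kept in their place. In the 1701 placed loops with the lowest FDR it was 6, with 1 for CD5, 2 for KLRB1, 1 for CCR7, 2 for GPA33 and 0 for CD247. The median ratio of 1.998 was 1.89, 1.70 and 1.87 against the lower-left, horizontal and vertical neighbourhoods. The number of the 5 genes in a TAD was 3 under every rule tried (whole gene, midpoint or any overlap). Within 40 kb of both edges of a TAD lay 6 loops rather than 2, those of CD5, KLRB1 and CCR7. The CD5 loops were touching pixels, as were the KLRB1 loops. The share of all placed loops at 40 kb is not reported here, so the 6 have no background beside them. T and NK list genes at anchors numbered 12, with 6 in the loops of lowest FDR (7.59%), 8 with 1 pixel per group (10.1%), 15 by gene bodies, 16 with extended anchors (20.3%) and 11 of the 68 left (16.2%) with 1 gene per 100 kb. Transcription starts were not run, since no strand was given. No paired analysis was possible because the lists carry no replicate, and depth per replicate is unknown, so contacts per loop set the precision.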
